A study of Mus musculus with 8 samples.

Results

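Axon guidance ligands and receptors were followed in the choroid plexus of mouse embryos. They were the rows of the deposited count table whose symbols are an Eph receptor, an ephrin, a semaphorin, a plexin, a neuropilin, a Slit, a Robo, a netrin, a netrin-G, an Unc5 receptor, Dcc or Neo1, with Robo4 left out. This gave 71 of the 23284 genes: 14 Eph receptors, 8 ephrins, 20 semaphorins, 9 plexins, 2 neuropilins, 3 Slits, 3 Robos, 4 netrins, 2 netrin-Gs and 6 netrin receptors. Choroid plexus is the folded tissue of the brain ventricles that makes cerebrospinal fluid, an epithelium around a stroma of mesenchyme, vessels and macrophages. RNA-seq libraries came from 4 groups of embryos at E18.5, each with 2 biological replicates. The first was sorted epithelial cells of hindbrain choroid plexus, from the hindmost ventricle, and the second was sorted epithelial cells of telencephalic choroid plexus, from the lateral ventricles, both from mice labelled ICR (CD1) and Ttr::RFP+. The other groups were whole hindbrain choroid plexus and whole telencephalic choroid plexus, both from mice labelled CD1. The labels name no mutation and no treatment, and sorted cells were purified by FACS on a red reporter of Ttr, the transthyretin gene that choroid epithelium transcribes. The design text states that both regions were taken from the same brains, and the sample descriptions name different brains for the sorted and the whole preparations. Whether embryos were pooled is not given in the sources used here.

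These genes encode contact and diffusible cues and their receptors. Slits repel cells and growth cones through Robo receptors, ephrins on one cell bind Eph receptor tyrosine kinases on the next, semaphorins bind plexins (the secreted class through neuropilins), and netrins bind Dcc, neogenin and Unc5 receptors. The same proteins also act outside the nervous system, in vessels, epithelia and mesenchyme.

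The Slit genes are shown first as sequence, because in sorted cells Slit3 had the smallest adjusted p of the members between regions and its paralogue Slit2 differed in the other direction. The RefSeq promoter windows (250 bases before to 50 bases after the gene start, build GRCm38.p6, both on the plus strand) lie at chr5:47982905-47983204 for Slit2 and chr11:35121206-35121505 for Slit3. Capitals mark a TATA box, TATAAA, searched on the strand of the gene.
Slit2: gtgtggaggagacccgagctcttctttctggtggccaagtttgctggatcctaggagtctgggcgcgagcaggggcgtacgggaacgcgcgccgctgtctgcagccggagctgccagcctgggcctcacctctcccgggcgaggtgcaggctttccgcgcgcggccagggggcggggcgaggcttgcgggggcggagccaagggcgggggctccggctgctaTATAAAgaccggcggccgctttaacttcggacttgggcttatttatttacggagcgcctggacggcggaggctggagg
Slit3: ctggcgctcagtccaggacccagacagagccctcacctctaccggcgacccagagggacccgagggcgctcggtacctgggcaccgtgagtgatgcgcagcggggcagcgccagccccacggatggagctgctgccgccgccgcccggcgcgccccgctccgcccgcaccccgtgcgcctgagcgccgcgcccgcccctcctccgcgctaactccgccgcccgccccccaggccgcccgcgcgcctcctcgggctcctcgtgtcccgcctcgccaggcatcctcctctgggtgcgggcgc
The Slit2 window held TATAAA 28 bases before the start, and the Slit3 window did not hold these letters. TATAAA occurred in 8.32% of 32851 promoter windows and in 1.30% of the 77 windows of 61 members that the table held. Neither Slit window held the Meis motif TGACAG or the Pbx-Hox motif TGATNNAT on either strand, and these letters occurred in 19.2% and 8.85% of all windows. Both windows were rich in G and C, 68.0% of bases in Slit2 and 78.3% in Slit3, with 30 and 41 CpG dinucleotides, and the median window held 64.3% G and C over the members and 52.7% over all promoters.

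Total counts lay between 8849053 and 31613434 per library, and the members took between 0.259% and 0.409% of them. Levels are given as CPM, the count scaled to the TMM-adjusted library size, for replicate 1 and then replicate 2. A gene is said to be called, or to have changed, at an adjusted p (edgeR's quasi-likelihood test, Benjamini-Hochberg adjustment over 15698 genes) below 0.05. Differences are log2 fold changes with the standard error (SE) that the model gives. The filter on low counts removed Epha10, Robo3 and Ntn5 and left 68 members. All 16 listed markers of choroid epithelium had counts in every library. In sorted over whole comparisons 7 were higher and 0 lower in the telencephalic plexus (22.4% of all genes were called). In the hindbrain 6 were higher and 1 lower (22.1% of all genes). Against telencephalic ones, 2 were higher and 6 lower in hindbrain sorted cells (15.2% of all genes). In hindbrain whole tissue 3 were higher and 4 lower (5.79% of all genes). Ttr alone stood at 158930.0 and 210599 CPM in hindbrain sorted cells, 281715 and 256945 CPM in telencephalic sorted cells, 139300.0 and 140805 CPM in hindbrain whole tissue and 186959 and 172023 CPM in telencephalic whole tissue. Endothelial transcripts were low but present after sorting: Cdh5, the vascular cadherin, was at 42.8 and 36.4 CPM in hindbrain sorted cells and 9.90 and 8.62 CPM in telencephalic sorted cells, against 210.1 and 225 CPM in hindbrain whole tissue and 149 and 165 CPM in telencephalic whole tissue. Other cell types fell less. Summed over listed markers, hindbrain sorted over whole ratios were 0.226 for endothelium, 0.263 for erythroid cells and 0.344 for neurons. They were 0.606 for progenitors and glia, 0.659 for mural cells, 0.890 for macrophages and 0.910 for mesenchyme. Telencephalic ratios lay from 0.157 for endothelium to 0.685 for progenitors and glia. The endothelial sum in hindbrain over telencephalic sorted cells was 1.47. In bulk RNA, fewer cells of a type and less RNA per cell cannot be told apart.

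The comparison of the regions asked how guidance genes differ between hindbrain and telencephalic choroid plexus. In sorted cells 28 of the 68 members tested were called (41.2%), against 15.2% of all genes tested. Of these, 18 were higher in hindbrain cells and 10 were lower, where 9.06% and 6.12% of all genes were higher and lower. In whole tissue 14 members were called (20.6%, against 5.79% of all genes), 9 higher and 5 lower in the hindbrain, where 3.34% and 2.45% of all genes were. The median log2 fold change over the tested members was 0.04 in sorted cells and 0.27 in whole tissue, and over all genes it was -0.00145 and 0.00501. The libraries of the regions did not overlap for any of the called members; among all genes, 26.1% lay above and 25.8% below without overlap in sorted cells, and 26.8% and 24.8% in whole tissue. Scaled to library totals instead of TMM, the split was 23 higher and 5 lower in sorted cells and 11 higher and 3 lower in whole tissue. All genes leaned the same way on that scale. They split into 2354 higher and 466 lower in sorted cells, and 614 higher and 255 lower in whole tissue. Leaving out any 1 whole-tissue library lowered the whole-tissue count, and leaving out telencephalic sorted replicate 1 lowered the sorted-cell count. Calls over all genes fell in the same fits, which leave 1 library in a group.

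Both preparations shared 10 calls and no member was called in opposite directions. Epha4, Epha7, Efna5, Efnb2, Robo2, Unc5c, Ntng1 and Ntng2 were higher in the hindbrain in both, where 2.49% of all genes were, and Slit3 and Ephb3 were lower in both, where 1.82% of all genes were. In sorted cells 18 further members changed, and in whole tissue 4 further members, which were Epha8, Sema3a, Sema3e and Sema6d. The other 36 tested members were called in neither preparation, at mean levels from 0.273 to 664 CPM, and 35 of them, all but Epha6, had log2 fold changes from -2.59 to 1.31 in sorted cells and from -0.48 to 1.82 in whole tissue.

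**Figure D1:**
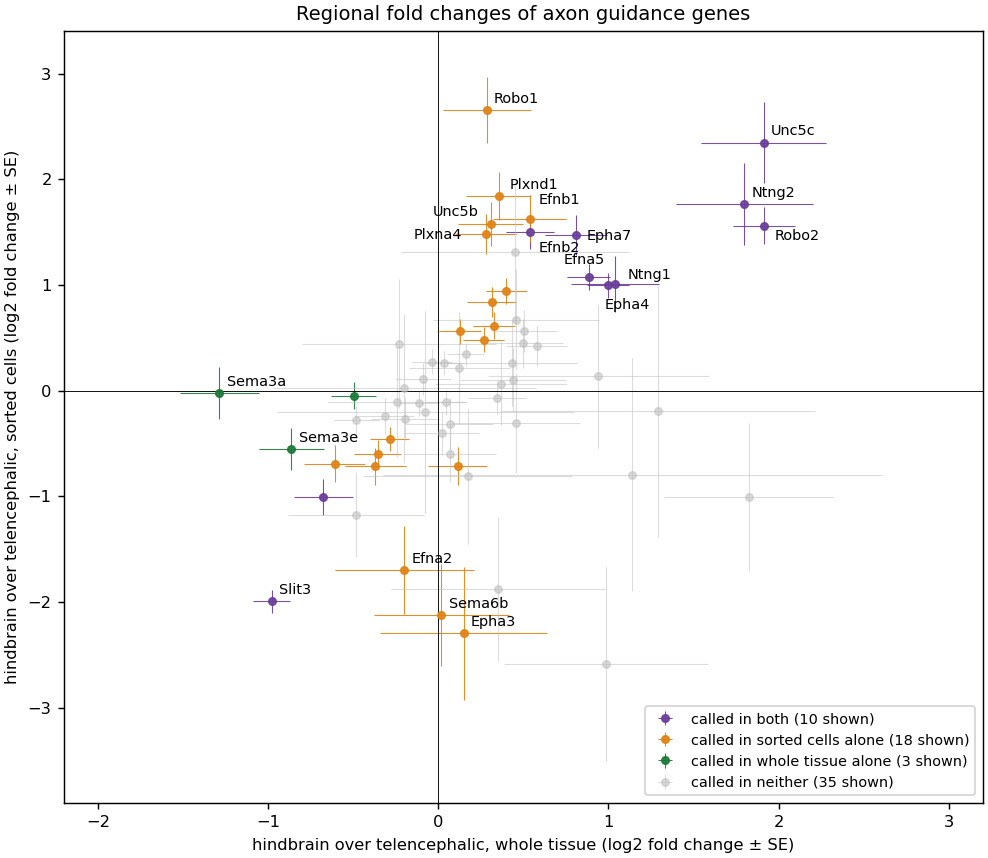
Each point is 1 of 66 tested members, with the hindbrain over telencephalic log2 fold change in whole tissue on the x axis and in sorted cells on the y axis, bars ± SE of the fit, and colours for where it was called; Epha6 and Epha8 are not drawn because a group had no count. Robo2, Unc5c and Ntng2 sit far to the upper right, Slit3 to the lower left, and Robo1 at 2.66 in sorted cells but 0.28 in whole tissue.

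Slit3, a secreted Robo ligand, was lower in the hindbrain in both preparations. In sorted cells it stood at 69.2 and 72.7 CPM in the hindbrain, against 281 and 285 CPM in the telencephalic plexus. In whole tissue it stood at 100.5 and 109.7 CPM in the hindbrain, against 209.9 and 205 CPM in the telencephalic plexus. It was thus low in both hindbrain groups, and the telencephalic cells were its highest group. The log2 fold change was -1.99 ± 0.11 in sorted cells (adjusted p = 3.95e-07) and -0.98 ± 0.11 in whole tissue (adjusted p = 0.000151). Slit2, the ligand with the most reads of its family, was at 425 and 371 CPM in hindbrain sorted cells, against 244 and 275 CPM in telencephalic sorted cells. In whole tissue Slit2 was at 307 and 329.6 CPM in the hindbrain, against 233 and 276 CPM in the telencephalic plexus. Its libraries separated by region in both preparations, and the test called the sorted cells (0.62 ± 0.12, adjusted p = 0.00513) but not the whole tissue (0.33 ± 0.12, adjusted p = 0.189). Leaving out telencephalic sorted replicate 1 ended the Slit2 call (adjusted p = 0.0769). Slit1 was not called in either, with at most 1.04 CPM in any library.

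Both Robo receptors that could be tested were higher in hindbrain sorted cells, where 9.06% of all genes were. Robo2 was at 34.9 and 31.3 CPM in hindbrain sorted cells, against 10.4 and 12.2 CPM in telencephalic sorted cells, and at 35.5 and 28.7 CPM in hindbrain whole tissue, against 9.23 and 7.65 CPM in telencephalic whole tissue. Its log2 fold changes were 1.56 ± 0.17 in sorted cells (adjusted p = 6.39e-05) and 1.92 ± 0.18 in whole tissue (adjusted p = 5.65e-05), so that all 4 hindbrain libraries were above all 4 telencephalic ones. Robo1 was at 13.1 and 6.75 CPM in hindbrain sorted cells, against 1.59 and 1.55 CPM in telencephalic sorted cells. In whole tissue it was at 19.8 and 18.4 CPM in the hindbrain, against 14.6 and 17 CPM in the telencephalic plexus. Robo1 therefore separated the regions widely after sorting (2.66 ± 0.31, adjusted p = 9.37e-05) and narrowly before it (0.28 ± 0.26, adjusted p = 0.683). Robo3 was not tested, with at most 0.587 CPM in any library.

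**Figure D2:**
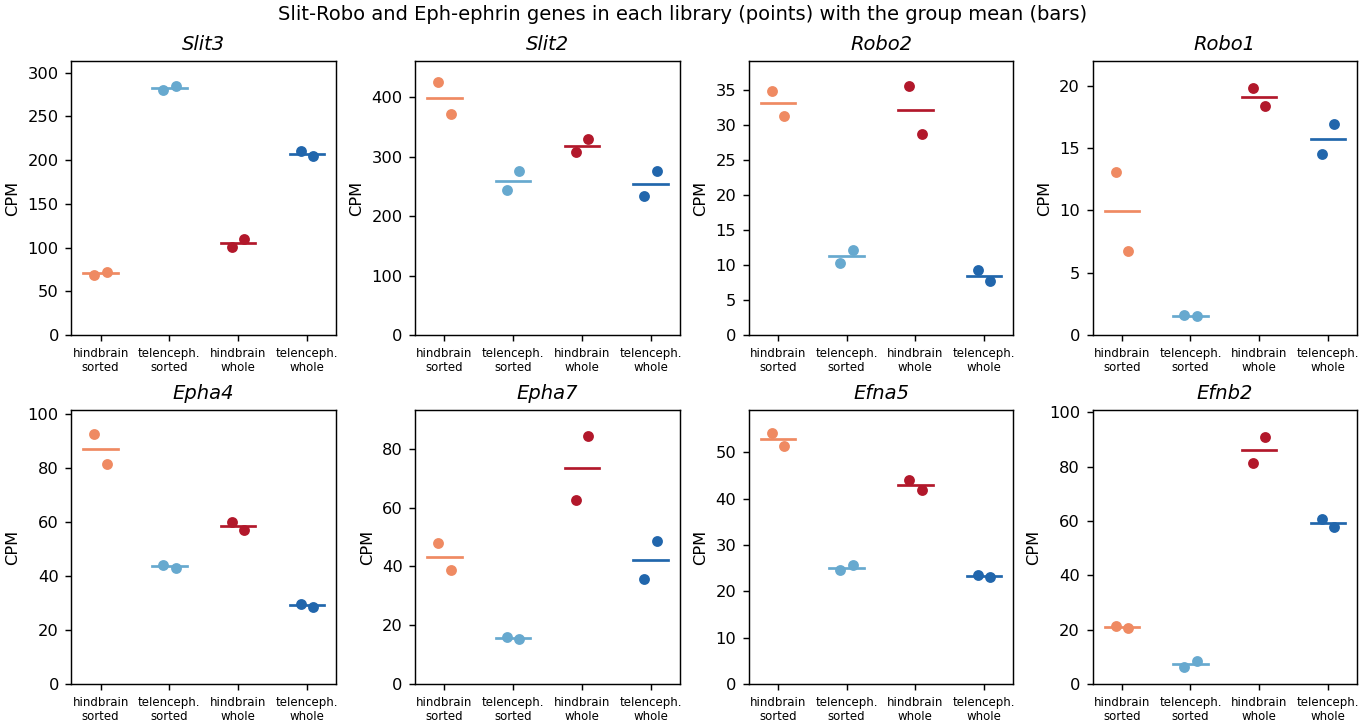
CPM (y axes from 0) of 4 Slit and Robo genes and 4 Eph and ephrin genes, 1 point per library and a bar at the mean of the 2 libraries of a group. Slit3 is low in the hindbrain and high in the telencephalic groups, Robo2, Epha4 and Efna5 show the reverse in both preparations, and Robo1 is lowest in telencephalic sorted cells, at 1.59 and 1.55 CPM.

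Among the 13 Eph receptors tested, 5 were called in sorted cells, 3 higher and 2 lower in the hindbrain. In whole tissue 4 were called, 3 higher and 1 lower. These were 38.5% and 30.8%, where 15.2% and 5.79% of all genes were called. Epha4, a receptor that binds ephrins of both classes, was at 92.5 and 81.7 CPM in hindbrain sorted cells, against 44.3 and 43.0 CPM in telencephalic sorted cells. Whole tissue gave 60.0 and 57.1 CPM in the hindbrain, against 29.8 and 28.7 CPM in the telencephalic plexus. The log2 fold change was 1.00 ± 0.12 in sorted cells (adjusted p = 0.000112) and 1.00 ± 0.12 in whole tissue (adjusted p = 0.000352), and the difference between these effects was not called (adjusted p = 1). Epha7, an ephrin-A receptor, was at 47.9 and 38.6 CPM in hindbrain sorted cells, against 16.0 and 15.2 CPM in telencephalic sorted cells, and at 62.6 and 84.4 CPM in hindbrain whole tissue, against 35.8 and 48.5 CPM in telencephalic whole tissue. The sorted groups stood further apart (1.47 ± 0.19, adjusted p = 0.000201) than the whole-tissue groups (0.81 ± 0.18, adjusted p = 0.0197), a difference between preparations that was not called (adjusted p = 0.426). Ephb4, best known as the ephrin-B2 receptor of veins, was at 40.7 and 34.2 CPM in hindbrain sorted cells, against 20.8 and 21.1 CPM in telencephalic sorted cells (0.84 ± 0.14, adjusted p = 0.00193). In whole tissue it was at 45.6 and 55.3 CPM in the hindbrain, against 40.8 and 40.3 CPM in the telencephalic plexus, and was not called (adjusted p = 0.3).

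Ephb3 and Epha3 were lower in the hindbrain. Ephb3, an ephrin-B receptor, was at 8.51 and 7.85 CPM in hindbrain sorted cells, against 17.6 and 15.3 CPM in telencephalic sorted cells (-1.01 ± 0.17, adjusted p = 0.00169). In whole tissue it was at 9.79 and 9.49 CPM in the hindbrain, against 15.2 and 15.6 CPM in the telencephalic plexus (-0.68 ± 0.17, adjusted p = 0.0404; 0.0906 under library totals). All 4 hindbrain libraries were thus below all 4 telencephalic ones. Epha3, an ephrin-A receptor, was near the bottom of detection in sorted cells, at 0.145 and 0.147 CPM in the hindbrain, against 0.945 and 0.496 CPM in the telencephalic plexus (-2.30 ± 0.63, adjusted p = 0.0273). Its whole-tissue libraries overlapped, at 2.38 and 1.70 CPM in the hindbrain and 1.90 and 1.78 CPM in the telencephalic plexus. Epha8, outside the rule for named genes and chosen after its values were seen, had 70 counts over both hindbrain whole libraries and 0 over both telencephalic ones, at least 13.1-fold higher against a floor of 3 counts over the group. For Epha6 the whole-tissue counts were 41 in the hindbrain and 2 in the telencephalic plexus, a ratio of 11.5 with a 95% counting interval of 3.0 to 98.5, and was not called. The remaining receptors, Epha1, Epha2, Epha5, Ephb1, Ephb2 and Ephb6, were not called and Epha10 was not tested. Leaving out 1 library ended the whole-tissue calls of Epha7 (without hindbrain whole replicate 2 or telencephalic whole replicate 1, adjusted p = 0.211 to 0.308), of Epha8 (without any 1 whole-tissue library, adjusted p up to 0.297) and of Ephb3 (without any 1 whole-tissue or telencephalic sorted library, adjusted p = 0.0559 to 0.246). The sorted-cell call of Epha3 ended without any 1 whole-tissue library, hindbrain sorted replicate 1 or telencephalic sorted replicate 1 (adjusted p = 0.0506 to 0.256), and when only the 4 sorted libraries were fitted (0.125).

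Of the 8 ephrins, the ligands of these receptors, 5 were called in sorted cells, 3 higher and 2 lower in the hindbrain. In whole tissue 2 were called, both higher. These were 62.5% and 25%, where 15.2% and 5.79% of all genes were called. Efna5, a lipid-anchored ligand, was at 54.2 and 51.4 CPM in hindbrain sorted cells, against 24.5 and 25.6 CPM in telencephalic sorted cells (1.07 ± 0.12, adjusted p = 9.11e-05). It was at 43.9 and 42.0 CPM in hindbrain whole tissue, against 23.5 and 23.1 CPM in telencephalic whole tissue (0.88 ± 0.13, adjusted p = 0.00108). The replicates lay within a few CPM of each other and the hindbrain was the higher region in both preparations. Efnb2, a transmembrane ligand that marks arteries, was at 21.4 and 20.5 CPM in hindbrain sorted cells, against 6.46 and 8.56 CPM in telencephalic sorted cells (1.5 ± 0.16, adjusted p = 4.04e-05). In whole tissue it was at 81.4 and 90.8 CPM in the hindbrain, against 60.6 and 57.9 CPM in the telencephalic plexus (0.54 ± 0.14, adjusted p = 0.0405). Efnb1, another transmembrane ligand, was at 16.4 and 13.5 CPM in hindbrain sorted cells, against 5.90 and 3.60 CPM in telencephalic sorted cells (1.63 ± 0.22, adjusted p = 0.000344), and its whole-tissue difference was not called, at 21.2 and 20.7 CPM in the hindbrain and 15 and 13.8 CPM in the telencephalic plexus.

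Efna2 and Efnb3 were the ephrins that fell in hindbrain sorted cells. Efna2, a lipid-anchored ligand, was at 1.24 and 1.98 CPM in hindbrain sorted cells, against 6.39 and 3.97 CPM in telencephalic sorted cells (-1.70 ± 0.42, adjusted p = 0.0165). Its whole-tissue libraries overlapped, at 3.02 and 5.24 CPM in the hindbrain and 3.36 and 6.29 CPM in the telencephalic plexus. Efnb3, a transmembrane ligand, was at 5.85 and 6.49 CPM in hindbrain sorted cells, against 9.68 and 10.6 CPM in telencephalic sorted cells (-0.71 ± 0.18, adjusted p = 0.0176). Whole tissue gave 16.8 and 15.8 CPM in the hindbrain and 15.7 and 14.5 CPM in the telencephalic plexus, which was not called (adjusted p = 0.834). Efna1, Efna3 and Efna4 were not called in either preparation. Leaving out any 1 whole-tissue library ended the whole-tissue call of Efnb2 (adjusted p = 0.0818 to 0.3), and leaving out hindbrain sorted replicate 1 or telencephalic sorted replicate 1 ended those of Efna2 (0.0659 to 0.17) and, with telencephalic sorted replicate 2 as well, of Efnb3 (0.055 to 0.0895). Efnb3 also missed the threshold with library totals as the scale (-0.51, adjusted p = 0.0668) and when only the 4 sorted libraries were fitted (0.101).

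The netrin ligands themselves were not called between regions, while both netrin-Gs and the receptors Unc5b and Unc5c were. Of the 6 netrin receptors, 2 were called in sorted cells (33.3%) and 1 in whole tissue (16.7%). Both netrin-Gs were called in each preparation. Of all genes, 15.2% were called in sorted cells and 5.79% in whole tissue. Unc5c, a repulsive netrin receptor, was at 9.13 and 7.96 CPM in hindbrain sorted cells, against 1.13 and 2.36 CPM in telencephalic sorted cells (2.35 ± 0.38, adjusted p = 0.00125). In whole tissue it was at 18.9 and 9.44 CPM in the hindbrain, against 3.61 and 3.98 CPM in the telencephalic plexus (1.91 ± 0.36, adjusted p = 0.00706). In whole tissue the hindbrain replicates differed more than the telencephalic ones, and without hindbrain whole replicate 1 the value was 1.32. Without telencephalic whole replicate 1 or 2 it was 1.84 or 1.98. The whole-tissue call was lost in each of these fits. Unc5b, a netrin receptor also known from vessels, was at 23.6 and 16.9 CPM in hindbrain sorted cells, against 7.64 and 5.77 CPM in telencephalic sorted cells (1.58 ± 0.21, adjusted p = 0.000267). Its whole-tissue levels were 41.0 and 51.9 CPM in the hindbrain and 39.9 and 35.0 CPM in the telencephalic plexus, apart but not called (adjusted p = 0.495). Neo1, neogenin, the netrin and RGM receptor with the most reads of its family, was at 262 and 224 CPM in hindbrain sorted cells, 199 and 206 CPM in telencephalic sorted cells, 254 and 275 CPM in hindbrain whole tissue and 256 and 259.7 CPM in telencephalic whole tissue, and was not called between regions. Dcc, the attractive netrin receptor, was at 0.618 and 0.257 CPM in hindbrain sorted cells and 0.756 and 1.05 CPM in telencephalic sorted cells. In whole tissue Dcc was at 24.1 and 6.56 CPM in the hindbrain, against 4.46 and 4.19 CPM in the telencephalic plexus, which missed the threshold (1.82 ± 0.50, adjusted p = 0.0507) and passed it with the brains as a block (1.65, adjusted p = 0.0204). Unc5a and Unc5d were not called between regions.

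The netrin-Gs are lipid-anchored relatives of netrins that bind other partners than Dcc. Ntng1 was at 13.4 and 8.66 CPM in hindbrain sorted cells, against 4.38 and 6.76 CPM in telencephalic sorted cells (1.01 ± 0.27, adjusted p = 0.0243). In whole tissue Ntng1 was at 21.4 and 26.1 CPM in the hindbrain, against 9.96 and 13.4 CPM in the telencephalic plexus (1.04 ± 0.26, adjusted p = 0.0351). Ntng2 was at 3.16 and 3.19 CPM in hindbrain sorted cells, against 1.13 and 0.682 CPM in telencephalic sorted cells (1.76 ± 0.39, adjusted p = 0.00898). All 4 hindbrain libraries of each lay above the telencephalic ones of the same preparation, and for Ntng2 whole tissue gave 4.68 and 3.63 CPM in the hindbrain, against 0.978 and 1.47 CPM in the telencephalic plexus (1.8 ± 0.40, adjusted p = 0.0187). Of the ligands, Ntn1 was at 30.9 and 53.3 CPM in hindbrain sorted cells, 27.7 and 34.3 CPM in telencephalic sorted cells, 53.0 and 42.3 CPM in hindbrain whole tissue and 38.3 and 28.7 CPM in telencephalic whole tissue. Its sorted libraries overlapped between regions and its whole-tissue libraries did not (0.50 ± 0.24, adjusted p = 0.321; with the brains as a block 0.51, adjusted p = 0.0461). Ntn3 was not called and Ntn5 was not tested, at no more than 0.491 CPM in any library. Both netrin-G whole-tissue calls were lost without any 1 whole-tissue library (adjusted p = 0.0628 to 0.394 for Ntng1 and 0.0598 to 0.286 for Ntng2). In sorted cells Ntng1 was lost without hindbrain replicate 1 or telencephalic replicate 1 (0.135 to 0.245) or with only the 4 sorted libraries in the fit (0.0729), and Ntng2 without telencephalic replicate 2 (0.0657).

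Among the 20 semaphorins, 6 were called in sorted cells, 2 higher and 4 lower in the hindbrain, and 3 in whole tissue, all lower. These were 30% and 15%, where 15.2% and 5.79% of all genes were called. The 2 that rose in hindbrain sorted cells were secreted. Sema3b was at 180.0 and 159 CPM in hindbrain sorted cells, against 119 and 124 CPM in telencephalic sorted cells (0.48 ± 0.12, adjusted p = 0.017). Sema3c was at 136 and 114 CPM in hindbrain sorted cells, against 79.9 and 89.8 CPM in telencephalic sorted cells (0.56 ± 0.12, adjusted p = 0.00833). Neither was called in whole tissue, where Sema3b was at 94.5 and 111 CPM in the hindbrain and 87.1 and 83.9 CPM in the telencephalic plexus, and Sema3c at 83.8 and 91.0 CPM in the hindbrain and 80.9 and 78.9 CPM in the telencephalic plexus. The secreted Sema3f was lower in hindbrain sorted cells, at 53.6 and 64.7 CPM, against 93.7 and 85.9 CPM in telencephalic sorted cells (-0.60 ± 0.14, adjusted p = 0.00997), with 46.8 and 56.9 CPM in hindbrain whole tissue and 65.4 and 67.5 CPM in telencephalic whole tissue. The transmembrane Sema4b was at 19.6 and 22.9 CPM in hindbrain sorted cells, against 36.5 and 31.9 CPM in telencephalic sorted cells (-0.69 ± 0.17, adjusted p = 0.0179). Hindbrain whole tissue held 20.5 and 15 CPM of Sema4b, against 28.5 and 25.6 CPM in telencephalic whole tissue, a difference that missed the threshold (-0.61 ± 0.18, adjusted p = 0.0714) and passed with the brains as a block (-0.62, adjusted p = 0.0302).

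Sema4g and Sema6b, both transmembrane, were the other semaphorins that fell in hindbrain sorted cells. Sema4g was at 12.6 and 14.4 CPM in hindbrain sorted cells, against 21.3 and 23.2 CPM in telencephalic sorted cells (-0.72 ± 0.17, adjusted p = 0.0145), and at 10.8 and 13.3 CPM in hindbrain whole tissue and 16.6 and 14.4 CPM in telencephalic whole tissue. Sema6b was at 0.327 and 0.330 CPM in hindbrain sorted cells, against 1.85 and 0.992 CPM in telencephalic sorted cells (-2.12 ± 0.48, adjusted p = 0.0107). Its whole-tissue libraries overlapped, at 3.91 and 2.97 CPM in the hindbrain and 3.91 and 2.83 CPM in the telencephalic plexus. The 3 whole-tissue calls were different semaphorins. Sema3a, the secreted neuropilin-1 ligand, was at 10.6 and 7.98 CPM in hindbrain whole tissue, against 18.8 and 27.0 CPM in telencephalic whole tissue (-1.29 ± 0.23, adjusted p = 0.00462). Its sorted libraries did not separate, at 4.44 and 4.00 CPM in the hindbrain and 4.57 and 3.97 CPM in the telencephalic plexus. Sema3e, a secreted ligand that binds Plxnd1 directly, was at 11.9 and 11.6 CPM in hindbrain whole tissue, against 19.4 and 23.6 CPM in telencephalic whole tissue (-0.86 ± 0.19, adjusted p = 0.0182). In sorted cells Sema3e was at 8.22 and 6.38 CPM in the hindbrain and 9.94 and 11.5 CPM in the telencephalic plexus (adjusted p = 0.0798). The transmembrane Sema6d, with the most reads of the family, was at 135 and 148 CPM in hindbrain whole tissue, against 191 and 209 CPM in telencephalic whole tissue (-0.50 ± 0.13, adjusted p = 0.0416), and its sorted libraries overlapped, at 145 and 117 CPM in the hindbrain and 144 and 127 CPM in the telencephalic plexus. The region effect of none of these 3 was called as different between preparations (adjusted p = 0.124 for Sema3a).

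Many semaphorin calls were lost when 1 library was left out. Such a fit leaves 1 library in a group, so a lost call does not show that it rested on the library left out. The log2 fold changes of the called semaphorins kept their sign in every alternative. In sorted cells the calls of Sema3b (0.0747 to 0.138), Sema3f (0.052 to 0.102), Sema4b (0.0738 to 0.158) and Sema4g (0.0532 to 0.0866) were lost without hindbrain replicate 1 or telencephalic replicate 1, those of Sema3b and Sema4g also without telencephalic replicate 2, and those of Sema3c (0.113) and Sema6b (0.143; 0.0774 with only the 4 sorted libraries in the fit) without telencephalic replicate 1, where the values in parentheses are the adjusted p. In whole tissue Sema3a was lost without hindbrain or telencephalic replicate 2 (0.0655 to 0.104), Sema3e without any 1 whole-tissue library (0.0754 to 0.227) and Sema6d without any 1 whole-tissue or telencephalic sorted library (0.0602 to 0.314). With library totals as the scale Sema3f (adjusted p = 0.0562), Sema4b (0.0636) and Sema4g (0.0535) in sorted cells and Sema6d (0.17) in whole tissue were not called.

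Of the plexins, the semaphorin receptors, 3 of 9 were called in sorted cells (33.3%, where 15.2% of all genes were). None was called in whole tissue, where 5.79% of all genes were. Plxnd1, known from endothelium, was at 15.3 and 20.2 CPM in hindbrain sorted cells, against 4.72 and 5.27 CPM in telencephalic sorted cells (1.84 ± 0.23, adjusted p = 0.000136). In whole tissue its libraries overlapped, at 67.6 and 98.6 CPM in the hindbrain and 57.7 and 72.5 CPM in the telencephalic plexus. Plxna4 was at 17.9 and 15 CPM in hindbrain sorted cells, against 5.18 and 6.70 CPM in telencephalic sorted cells (1.48 ± 0.19, adjusted p = 0.000195), and at 21.5 and 24.4 CPM in hindbrain whole tissue and 18.2 and 19.7 CPM in telencephalic whole tissue (adjusted p = 0.512). Plxna1 went the other way, at 180.4 and 205 CPM in hindbrain sorted cells, against 274 and 256 CPM in telencephalic sorted cells (-0.46 ± 0.11, adjusted p = 0.0149), with 159.7 and 175 CPM in hindbrain whole tissue and 205 and 204 CPM in telencephalic whole tissue. Plxnb2, a receptor for class 4 semaphorins and the member with the most reads, was at 689 and 691 CPM in hindbrain sorted cells and 687 and 813 CPM in telencephalic sorted cells, and at 545 and 623 CPM in hindbrain whole tissue and 622 and 641 CPM in telencephalic whole tissue, with no call. The Plxna1 call was lost without hindbrain sorted replicate 1 or telencephalic sorted replicate 1 (adjusted p = 0.0671 to 0.13) and under library totals (0.155).

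The neuropilins carry secreted semaphorins and VEGF to their signalling receptors. Nrp2 was at 99.7 and 117 CPM in hindbrain sorted cells, against 53.4 and 59.5 CPM in telencephalic sorted cells (0.94 ± 0.12, adjusted p = 0.000197). Whole tissue gave 177 and 191 CPM in the hindbrain, against 139.5 and 139.6 CPM in the telencephalic plexus, apart but not called (0.40 ± 0.12, adjusted p = 0.0768; with the brains as a block 0.40, adjusted p = 0.043). Nrp1 was at 213 and 178 CPM in hindbrain sorted cells, 155 and 168 CPM in telencephalic sorted cells, 192 and 196 CPM in hindbrain whole tissue and 193 and 206 CPM in telencephalic whole tissue, and was not called between regions.

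Markers of several other cell types, though not of neurons, were higher in hindbrain than in telencephalic sorted cells. Of all genes, 9.06% were called higher and 6.12% lower in hindbrain sorted cells, and 3.34% and 2.45% in hindbrain whole tissue. In sorted cells, markers of mesenchyme were called higher in the hindbrain in 13 of 14 tested and of macrophages in 15 of 15. Mural markers were higher in 8 of 11 and endothelial markers in 6 of 15, with 1 lower. Summed mesenchymal markers were at 2111 and 1593 CPM in hindbrain sorted cells, against 909.9 and 947 CPM in telencephalic sorted cells, and endothelial markers at 206 and 197 CPM, against 134 and 139 CPM. Mural markers summed to 296 and 265 CPM in hindbrain sorted cells, against 77.0 and 69.9 CPM in telencephalic sorted cells, and macrophage markers to 250.4 and 198 CPM, against 42.2 and 67.1 CPM. All these sums were higher in the hindbrain sorted cells, and none of the markers in these 4 lists was at 0 in both libraries of a group. In whole tissue the mesenchymal sums were 1917 and 2154 CPM in the hindbrain, against 1284 and 1534 CPM in the telencephalic plexus, with 5 of 14 markers called higher, and the endothelial sums were 856 and 927 CPM, against 867 and 877 CPM, with 1 of 15 called higher. Macrophage markers summed to 253 and 251 CPM in hindbrain whole tissue, against 184 and 199.5 CPM in telencephalic whole tissue, with all 15 fold changes above 0 and 1 called, and mural markers to 386 and 466 CPM, against 406 and 425 CPM, with 4 of 11 fold changes above 0. Early response genes, which rise when tissue is dissociated, summed to 1722 and 1939 CPM in hindbrain sorted cells, against 970.4 and 1039 CPM in telencephalic sorted cells, with 13 of 16 called higher. Neuronal markers summed to 53.6 and 58.0 CPM in hindbrain sorted cells, against 52.5 and 65.0 CPM in telencephalic sorted cells. Of 14 tested there, 1 was called higher and 4 lower in the hindbrain, with a median log2 fold change of -0.58. In whole tissue the neuronal sums were 166 and 159 CPM in the hindbrain, against 119 and 109 CPM in the telencephalic plexus, with 2 higher and 1 lower. Gap43 was at 0 in both telencephalic sorted libraries. Markers of progenitors and glia summed to 282 and 317 CPM in hindbrain sorted cells, against 233 and 263 CPM in telencephalic sorted cells, and erythroid markers to 15.4 and 17.8 CPM, against 7.71 and 10.6 CPM. In hindbrain whole tissue the progenitor and glia sums were 505 and 483 CPM, against 373 and 351 CPM in telencephalic whole tissue, with 3 of 10 markers called higher, and the erythroid sums were 65.6 and 60.6 CPM, against 27.8 and 34.7 CPM, with 1 of 5 called higher. The part of these cell types in the guidance gene differences was not tested.

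**Figure D3:**
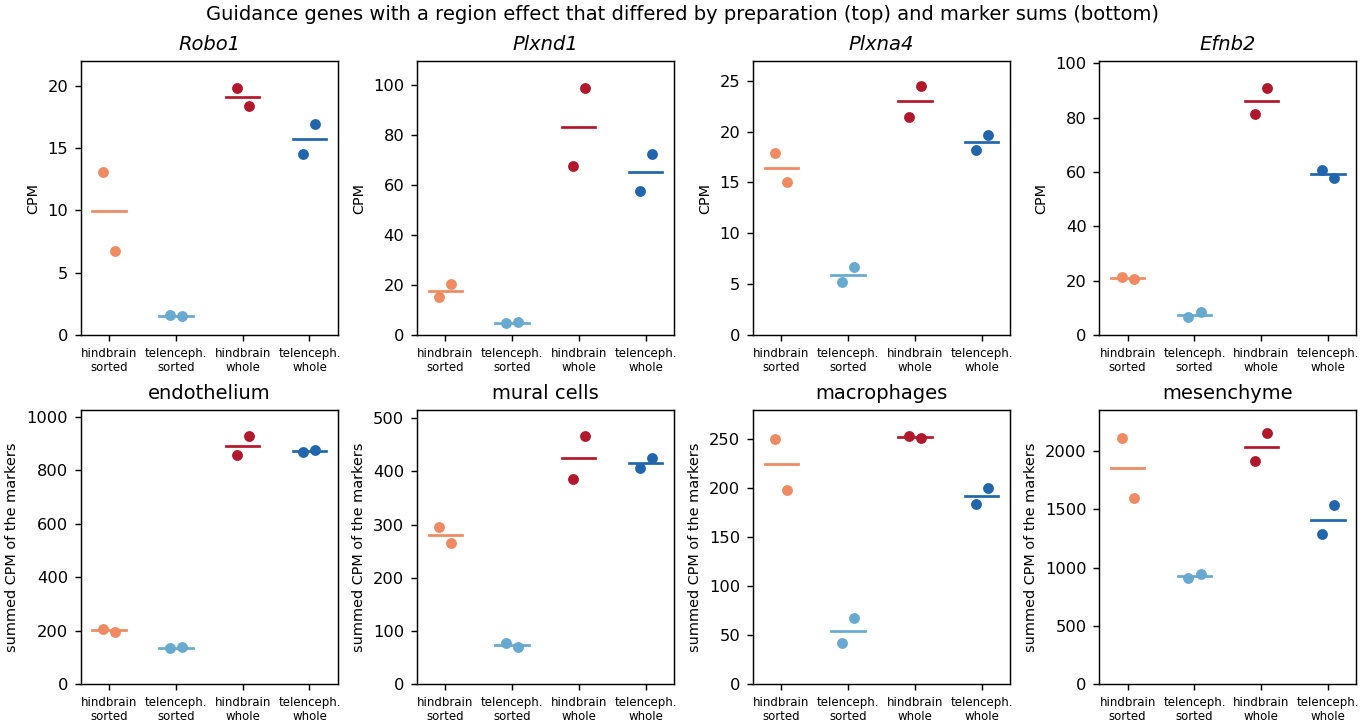
CPM of 4 guidance genes (top) and summed CPM of marker lists of 4 other cell types (bottom), 1 point per library and a bar at the group mean, y axes from 0. Each of the 8 panels has telencephalic sorted cells as its lowest group. Slit3 is not among these panels and had its highest values in that group. A link between the genes and the markers was not tested.

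The difference between the region effects of the preparations was tested directly as an interaction, the effect in sorted cells minus that in whole tissue. Of the 68 members, 5 were called (7.35%, against 1.34% of all genes), 4 higher and 1 lower, where 1.10% and 0.242% of all genes were. Slit3 was the lower one, with its telencephalic excess larger after sorting (-1.01 ± 0.15, adjusted p = 0.0053). Robo1 (2.37 ± 0.40, adjusted p = 0.0106), Plxnd1 (1.48 ± 0.30, adjusted p = 0.0282), Plxna4 (1.2 ± 0.26, adjusted p = 0.0433) and Efnb2 (0.96 ± 0.21, adjusted p = 0.0438) had a larger hindbrain excess after sorting. The values of these 4 were lowest in telencephalic sorted cells, the group that also had the lowest sums of mesenchymal, endothelial, mural and macrophage markers. Slit3 was highest in that group. Neuronal sums there were 52.5 and 65.0 CPM, against 53.6 and 58.0 CPM in hindbrain sorted cells. The part of any cell type in the interaction calls was not tested. Every one of the 5 calls was lost without some library: Slit3 without telencephalic whole replicate 2 (adjusted p = 0.0571), Robo1 without any 1 telencephalic library (0.0505 to 0.078), Plxnd1 without hindbrain whole replicate 1 or any 1 telencephalic library (0.0632 to 0.182), Plxna4 without any 1 library other than hindbrain sorted replicate 2 (0.0535 to 0.24), and Efnb2 without any 1 library other than hindbrain or telencephalic sorted replicate 2 (0.0601 to 0.261). With the brains as a block, Efnb1 (1.13, adjusted p = 0.0397) and Unc5b (1.30, adjusted p = 0.00716) were called as well.

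Sorting was compared with whole tissue within each region to ask which guidance genes were found in the epithelial fraction. More members were lower than higher in sorted cells. In the telencephalic plexus 31 of the 68 were called (45.6%, against 22.4% of all genes), 6 higher and 25 lower, where 9.88% and 12.5% of all genes were. In the hindbrain plexus 34 were called (50%, against 22.1% of all genes), 4 higher and 30 lower, where 10.2% and 11.9% of all genes were. The median log2 fold change over the tested members was -0.48 in the telencephalic and -0.67 in the hindbrain plexus, and over all genes 0.01 in each. In both regions 3 members were higher, where 5.88% of all genes were, and 21 were lower, where 7.29% were. The 21 were Efna1, Efnb2 and Efnb3 of the ephrins, Epha7 and Ephb4 of their receptors, Robo1, Nrp2, Ntn3, Ntng1, the netrin receptors Dcc, Unc5b and Unc5d, the plexins Plxna2, Plxnc1 and Plxnd1, and the semaphorins Sema3a, Sema3e, Sema5a, Sema5b, Sema6a and Sema7a. Efna1, Efnb2, Nrp2, Plxna2, Plxnd1, Sema5a, Sema5b, Sema7a and Unc5b, 9 of the 21, kept both calls under each of the 13 alternatives tried. The other 12 lost a call under at least 1 alternative, most of which left out a library: in the telencephalic plexus Dcc, Efnb3, Ntn3, Ntng1, Plxnc1, Sema3e and Unc5d (highest adjusted p of each gene 0.0501 to 0.224), and in the hindbrain Epha7, Ephb4, Ntn3, Ntng1, Plxnc1, Robo1, Sema3a, Sema3e, Sema6a and Unc5d (0.0529 to 0.321). The losses were most frequent for Ephb4 in the hindbrain, under 7 alternatives, and for Efnb3 and Ntn3 in the telencephalic plexus, under 6. With library totals as the scale the telencephalic split was 1 higher and 32 lower, where all genes split into 485 higher and 4145 lower. The telencephalic count fell to 17 without whole replicate 2 and 20 without sorted replicate 1. Sorted and whole libraries came from different brains and labelled strains, which cannot be told apart from the sorting itself.

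Ntn4, a netrin of basement membranes, rose most in sorted cells. It was at 23.5 and 20.7 CPM in hindbrain sorted cells, against 10.1 and 10.8 CPM in hindbrain whole tissue, and at 23.1 and 23.3 CPM in telencephalic sorted cells, against 8.25 and 8.17 CPM in telencephalic whole tissue. The log2 fold change of sorted over whole was 1.08 ± 0.16 in the hindbrain (adjusted p = 0.000522) and 1.5 ± 0.17 in the telencephalic plexus (adjusted p = 5.41e-05), with no overlap in either. Among all genes, 29.8% lay above and 29.9% below without overlap between hindbrain preparations, and 33.7% and 32.6% between telencephalic ones. Sema3b (0.72 ± 0.12 in the hindbrain, adjusted p = 0.00129, and 0.50 ± 0.12 in the telencephalic plexus, adjusted p = 0.0108) and Epha4 (0.57 ± 0.12 in the hindbrain, adjusted p = 0.0048, and 0.57 ± 0.12 in the telencephalic plexus, adjusted p = 0.00604) were also higher in the sorted cells of both regions. With library totals as the scale Epha4 was not called in the hindbrain (adjusted p = 0.066) or the telencephalic plexus (0.212), and Sema3b was not called in the telencephalic plexus (0.365). Slit3 was the member called in opposite directions, at -0.57 ± 0.11 in the hindbrain (adjusted p = 0.00281) and 0.45 ± 0.11 in the telencephalic plexus (adjusted p = 0.00974), of which the telencephalic call was lost with library totals as the scale and without any 1 telencephalic library (adjusted p = 0.0575 to 0.0846). Leaving out any 1 telencephalic library also ended the telencephalic call of Sema3b (0.0523 to 0.0915), and leaving out either telencephalic whole library ended that of Epha4 (0.0519 to 0.0616).

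Among the genes that fell in the sorted cells of both regions, those with the largest falls, by the smaller of the region values, were Sema7a, Plxnd1, Sema5b, Efna1, Dcc and Efnb2. Sema7a, a lipid-anchored semaphorin, was at 0.473 and 0.257 CPM in hindbrain sorted cells, against 10.1 and 9.91 CPM in hindbrain whole tissue (-4.76 ± 0.39, adjusted p = 5.14e-06). In the telencephalic plexus it was at 0.189 and 0.496 CPM in sorted cells, against 9.84 and 8.49 CPM in whole tissue (-4.85 ± 0.42, adjusted p = 6.02e-06). Without telencephalic sorted replicate 1 or 2 the telencephalic value was -4.20 or -5.56. Plxnd1 had sorted over whole log2 fold changes of -2.22 ± 0.20 in the hindbrain (adjusted p = 1.25e-05) and -3.71 ± 0.23 in the telencephalic plexus (adjusted p = 3.61e-07). Efnb2 had -2.04 ± 0.14 in the hindbrain (adjusted p = 1.43e-06) and -3.0 ± 0.16 in the telencephalic plexus (adjusted p = 9.38e-08), and all its sorted libraries were below all its whole-tissue ones. Sema5b, a transmembrane semaphorin, was at 0.509 and 0.770 CPM in hindbrain sorted cells, against 6.69 and 5.52 CPM in hindbrain whole tissue (-3.24 ± 0.42, adjusted p = 0.000224), and at 0.491 and 1.18 CPM in telencephalic sorted cells, against 4.22 and 4.72 CPM in telencephalic whole tissue (-2.48 ± 0.44, adjusted p = 0.00168; -3.16 without telencephalic sorted replicate 2). Efna1, a lipid-anchored ephrin of vessels, was at 0.436 and 0.367 CPM in hindbrain sorted cells, against 2.62 and 3.16 CPM in hindbrain whole tissue (-2.83 ± 0.46, adjusted p = 0.00111), and at 0.529 and 0.310 CPM in telencephalic sorted cells, against 3.85 and 2.93 CPM in telencephalic whole tissue (-2.96 ± 0.48, adjusted p = 0.000889). Dcc had -5.11 ± 0.60 in the hindbrain (adjusted p = 0.000116) and -2.29 ± 0.59 in the telencephalic plexus (adjusted p = 0.0157); the hindbrain value was -3.89 without whole replicate 1, -5.77 without whole replicate 2 and -5.88 without sorted replicate 1. The telencephalic call of Dcc was lost without any 1 telencephalic library (adjusted p = 0.0564 to 0.133).

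**Figure D4:**
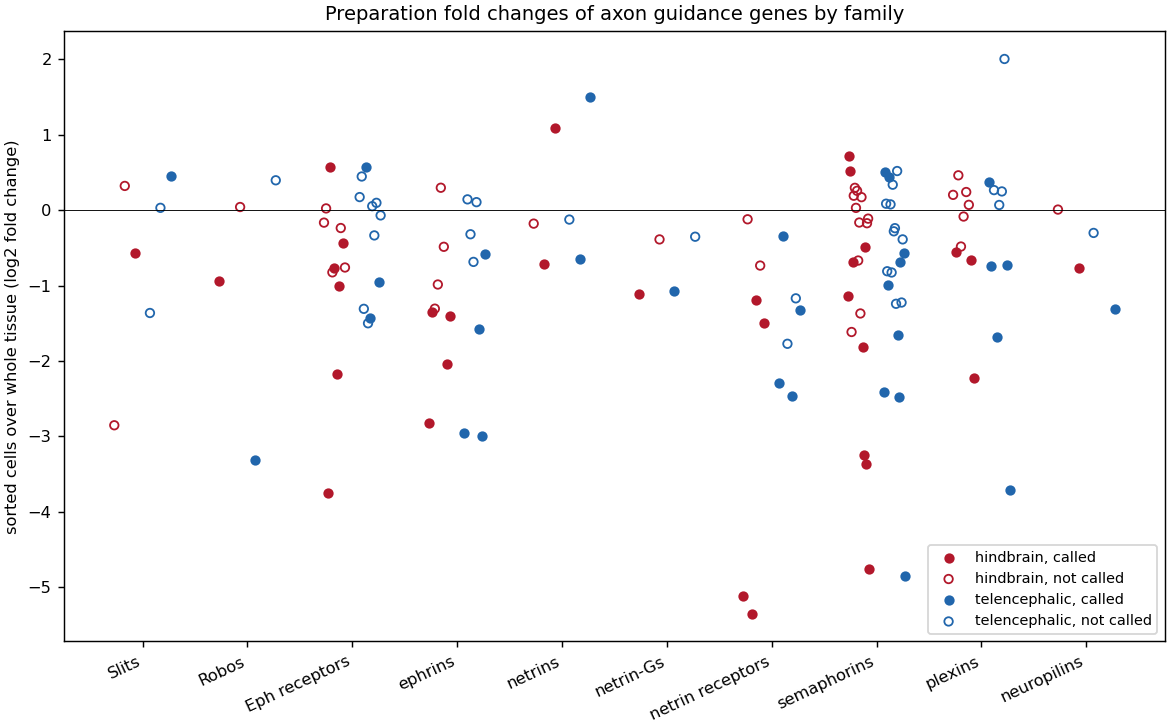
Sorted over whole log2 fold change (y axis) of 66 tested members by family (x axis), red for hindbrain and blue for telencephalic plexus, filled where called; Epha6 and Epha8 are not drawn. Most filled points lie below 0, down to -5.35 for Unc5a in the hindbrain, and Ntn4 is the highest filled point of each region, at 1.08 in the hindbrain and 1.5 in the telencephalic plexus.

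Markers of other cell types were followed in the same comparisons. Of all genes, 12.5% were lower and 9.88% higher in telencephalic sorted cells, and 11.9% and 10.2% in hindbrain sorted cells. All 15 endothelial markers were lower in sorted cells in both regions, with summed CPM of 206 and 197 in hindbrain sorted cells, against 856 and 927 in hindbrain whole tissue, and 134 and 139 in telencephalic sorted cells, against 867 and 877 in telencephalic whole tissue. Mesenchymal markers were lower in 11 of 14 in the telencephalic plexus and in 3 of 14, with 1 higher, in the hindbrain. These were 78.6% and 28.6% of the markers tested, where 22.4% and 22.1% of all genes were called. Mural markers were lower in 9 of 11 in the telencephalic plexus and 5 of 11 in the hindbrain, where they summed to 296 and 265 CPM in sorted cells, against 386 and 466 CPM in whole tissue. Macrophage markers were lower in 13 of 15 in the telencephalic plexus and 2 of 15 in the hindbrain. The hindbrain share, 13.3%, was near the 11.9% of all genes that were lower there. Macrophage sums in the hindbrain were 250.4 and 198 CPM in sorted cells, against 253 and 251 CPM in whole tissue. Markers of progenitors and glia were lower in 4 of 10 in the telencephalic plexus and 5 of 10 in the hindbrain, and erythroid markers in 2 of 5 and in 3 of 5 with 1 higher. Neuronal markers were lower in 8 of 14 in the telencephalic plexus and 12 of 14 in the hindbrain. Early response genes were higher in 14 of 16 in the telencephalic plexus and 15 of 16 in the hindbrain, with sums of 1722 and 1939 CPM in hindbrain sorted cells, against 155 and 144 CPM in hindbrain whole tissue. The part of these in the guidance gene values was not tested. For Epha6 the hindbrain counts were 0 in sorted cells and 41 in whole tissue, at least 16.3-fold lower against a floor of 3 counts over the group.

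Levels of different genes were set side by side per kilobase of merged exon (GENCODE M21). The annotation used for the counts is not given, so this scale is approximate, and replicate ranges do not show an error of length. Plxnb2 was the highest member in all 4 groups. Its means were 105 CPM per kilobase in hindbrain sorted cells, 114 in telencephalic sorted cells, 89.0 in hindbrain whole tissue and 96.2 in telencephalic whole tissue. Nrp1 followed in 3 groups, at 54.3 CPM per kilobase in hindbrain sorted cells, 54.0 in hindbrain whole tissue and 55.4 in telencephalic whole tissue. In telencephalic sorted cells Slit3 was ahead of it, at 53.7 and 54.5 CPM per kilobase in the libraries, against 43.1 and 46.8 for Nrp1, and the ranges did not overlap. In hindbrain sorted cells Slit3 ranked 12th, at 13.6 CPM per kilobase, and Slit2 was at 39.7. Epha4 was the highest Eph receptor per kilobase in both sorted groups and Ephb4 in both whole-tissue groups, and Efna5 the highest ephrin in the sorted groups and Efnb2 in the whole-tissue groups.

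Co-receptors and modulators of guidance signalling, a list of 25 genes, had 3 higher and 6 lower members in hindbrain sorted cells and 5 higher and 4 lower in hindbrain whole tissue, against telencephalic ones (36% called in each, where 15.2% and 5.79% of all genes were). Ext1, which builds the heparan sulfate that Slits bind, had the smallest adjusted p in both, with -1.06 ± 0.12 in sorted cells (adjusted p = 0.0001) and -1.14 ± 0.13 in whole tissue (adjusted p = 0.000156). Chl1, an adhesion molecule that partners neuropilin-1, was the second in sorted cells (-2.73 ± 0.44, adjusted p = 0.00124), and Met, the hepatocyte growth factor receptor, in whole tissue (2.38 ± 0.43, adjusted p = 0.00496). The list's median was -0.33 in sorted cells and 0.01 in whole tissue. Intracellular effectors, a list of 40 genes, had 5 higher and 2 lower members in hindbrain sorted cells, and 2 higher and none lower in hindbrain whole tissue, with medians of 0.12 and 0.07. These were 17.5% and 5% of the list, near the 15.2% and 5.79% of all genes. Mical2, an actin oxidase related to the plexin partner Mical1, was higher in sorted cells (1.83 ± 0.19, adjusted p = 3.44e-05) and in whole tissue (0.87 ± 0.19, adjusted p = 0.0143). Mical1 was also higher in sorted cells (1.94 ± 0.31, adjusted p = 0.00104), and Dpysl3, a semaphorin effector of the CRMP family, in whole tissue (1.48 ± 0.28, adjusted p = 0.00705). In sorted over whole comparisons 2 co-receptors were higher and 5 lower in the telencephalic plexus, and 2 higher and 8 lower in the hindbrain. These were 28% and 40% of the list, where 22.4% and 22.1% of all genes were called. For effectors these were 1 higher and 10 lower in the telencephalic plexus and 1 higher and 11 lower in the hindbrain, or 27.5% and 30% of the list.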

How the data were processed

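RNA-seq was run on 8 libraries of mouse choroid plexus, 2 in each of 4 groups. Per the labels' protocols, RNA was isolated with the RNeasy Micro Kit, converted and pre-amplified with the NuGEN Ovation system and made into TruSeq v2 libraries, which mark no strand and carry no molecular identifiers, so counting intervals cover counting error only and reads of overlapping genes cannot be told apart. Per the submitters' processing notes, the authors used CASAVA 1.8.2, TopHat2 2.0.4, Bowtie2 2.0.5, HTSeq and DESeq 1 with the build mm9; of the annotation and the strand setting nothing is stated (not given in the sources used here). Whole-number counts per gene symbol, not normalized, were deposited by the authors. All 8 columns matched a sample.

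Group differences were tested with edgeR 4.0.16, run in R 4.3.3 (TMM scaling, filterByExpr with a minimum count of 10 and a minimum total of 15, 4 group means, quasi-likelihood F tests). Of 23284 genes 15698 were tested, with Benjamini-Hochberg adjustment over all of them. The p-values rest on the spread between the 2 libraries of a group, estimated jointly over all 4 groups and with information shared across genes. A test in sorted cells thus also drew on the spread in whole tissue, and the reverse. Pairing within brains was left out of this fit. Replicates differed by more than sampling noise, with a chi-square per degree of freedom between 5.16 and 61.1. Pairing of regions within brains comes from the series' design text and the sample descriptions, and deviations of libraries from 1 brain correlated at 0.193 (whole tissue) and 0.145 (sorted cells) over 15698 genes.

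Values per library are given for members called between regions (up to 30), called in the interaction, with the most reads of a family, or changed with preparation in both regions (up to 6 a direction). List genes are named by the 2 smallest adjusted p, and Ttr, Cdh5 and Gap43 as marker checks. Of 190 listed genes 189 were found. The members, lists and rules were chosen with earlier results of these data known. Alternatives were DESeq2 1.42.0, its size factors, library totals, no filter, only the 4 libraries compared, brains as a block and leaving out each library; the statistics were tested on simulated data. Promoters are RefSeq windows of GRCm38.p6; exon lengths are from GENCODE M21.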

Additional observations from a re-analysis of the deposited data

Results flagged for a closer look

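The regional difference, hindbrain over telencephalic, was not the same in sorted cells and in whole tissue for 5 members, by edgeR's test of the difference between the 2 log2 fold changes (sorted minus whole). Slit3 had -1.99 ± 0.11 in sorted cells and -0.98 ± 0.11 in whole tissue, a difference of -1.01 ± 0.15 (adjusted p = 0.0053). Robo1 had 2.66 ± 0.31 in sorted cells and 0.28 ± 0.26 in whole tissue, a difference of 2.37 ± 0.40 (adjusted p = 0.0106). Plxnd1 had 1.84 ± 0.23 in sorted cells and 0.36 ± 0.19 in whole tissue, a difference of 1.48 ± 0.30 (adjusted p = 0.0282). Plxna4 had 1.48 ± 0.19 in sorted cells and 0.28 ± 0.18 in whole tissue, a difference of 1.2 ± 0.26 (adjusted p = 0.0433). Efnb2 had 1.5 ± 0.16 in sorted cells and 0.54 ± 0.14 in whole tissue, a difference of 0.96 ± 0.21 (adjusted p = 0.0438). In all 5 the hindbrain and telencephalic sorted libraries lay further apart on the log2 scale than the whole-tissue ones.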

How the results depend on the processing

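With edgeR's quasi-likelihood test, the members called between regions in whole tissue (14 as reported) numbered 5 to 19 when each library was left out in turn, in sorted cells (28) 16 to 34, in the interaction (5) 0 to 7, and between preparations 17 to 37 in the telencephalic plexus (31) and 23 to 35 in the hindbrain plexus (34). The interaction count of 0 came without telencephalic whole replicate 2, and without the filter on low counts it was 10. A lone library left in a group was taken to vary like the other groups. With the replicate block (brain) 20 members were called in whole tissue, 30 in sorted cells and 7 in the interaction. These held all 14, 28 and 5 calls as reported, so none was lost under this pairing. The gains included the 4 calls named above in whole tissue and the 2 in the interaction. Further gains, in whole tissue and in sorted cells, were of members without values per library here. Over all genes, the calls numbered 1587 in whole tissue (909 as reported), 1460 in sorted cells (2383) and 2236 between preparations in the hindbrain (3472) when only the 4 libraries compared were fitted, and in the interaction (211) they numbered 441 without a filter, 335 with DESeq2 and 337 with the replicate block. Leaving out each library gave 316 to 1341, 1051 to 3252, 58 to 473, 1519 to 4501 (telencephalic, 3517 as reported) and 1691 to 3875 in these comparisons, taken in the order whole tissue, sorted cells, interaction, telencephalic preparation and hindbrain preparation. Library totals as the scale shifted the median of all genes by 0.20 in sorted cells, 0.12 in the interaction, -0.32 between telencephalic preparations and -0.20 between hindbrain preparations. For the 40 members with values per library, 2443 of 2680 alternative values stayed on the same side of the threshold. Of the others, 166 lost the call (144 of them by leaving out a library), 71 gained it and 0 changed sign with a call. Direction was compared only where the main fit or the alternative made a call. Calls kept in every alternative were 4 of 14 in whole tissue (Efna5, Epha4, Robo2, Slit3), 15 of 28 in sorted cells, 0 of 5 in the interaction, 17 of 31 and 17 of 34 between telencephalic and hindbrain preparations. Members under 1 CPM in every library compared rest on few reads; calls at that level were those of Epha3 in sorted cells and Epha6 between hindbrain preparations.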
